A study of Mus musculus with 2 samples.

Results

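The genes described here build and run the primary cilium: the intraflagellar transport (IFT) complexes and their motors, the BBSome, the transition zone, and a few proteins of the basal body and of membrane cargo. They were chosen by gene symbol (Ift, Bbs, Tctn and Nphp genes by name pattern, and 20 single symbols), which gave 48 of the 24062 genes of the count tables. RNA was sequenced from CD31+ KITint cells sorted from the aorta of C57BL6 mouse embryos at embryonic day 11, labelled as hematopoietic progenitors. The cells were sorted on Gata2Venus, a fluorescent reporter transgene for the blood transcription factor gene Gata2, into a Gata2Venus-negative group with 1 library and a Gata2Venus-positive group with 1 library. This reading follows the stated sorting step, while the labels also list the reporter status as genotype, so whether the negative cells came from embryos that carry the reporter is not stated. The groups share strain, age, tissue and the CD31 and KIT gates, and how many embryos were pooled is not given in the sources used here. The study is about Gata2-independent blood progenitors, and the comparison asks how reporter-negative and reporter-positive cells differ.

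A primary cilium is a single antenna of microtubules that grows from a centriole, the basal body, and protrudes from the surface of many non-dividing cells, mesenchymal and endothelial cells among them. Kinesin-2 carries IFT trains with their cargo to the tip and dynein-2 brings them back, the BBSome rides on the trains and moves membrane proteins, and the transition zone at the base acts as a gate. Hedgehog signals in vertebrates pass through this organelle, and cells take it down before they divide.

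Counts in genes totalled 10135400 in the library of reporter-negative cells and 9715131 in that of reporter-positive cells, and levels are in CPM, counts per 1000000 after TMM scaling. Since each group is 1 library, differences could not be checked on replicates or tested, every comparison is between these 2 libraries, and the 95% intervals cover counting error only. In sorted bulk cells, fewer cells of a type and less RNA per cell cannot be told apart. Gata2 was at 13.5 CPM in reporter-negative cells and 70.2 CPM in reporter-positive cells, the direction of the sort. Kit, a gene of the sort, was at 199 CPM in reporter-negative cells and 60.7 CPM in reporter-positive cells, and Pecam1, which encodes CD31, was at 537 and 489 CPM. The label of progenitor was borne out in part: Runx1, a transcription factor of emerging blood cells, had 21 counts in reporter-negative cells and 303 in reporter-positive cells, Myb and Gfi1b had 0 counts in reporter-negative cells against 58 and 252 in reporter-positive cells, and Spn was at 0 in both. Of the 6 listed blood stem and progenitor markers, Kit among them, 3 were at 0 counts in reporter-negative cells and 1 in reporter-positive cells. Not all of the 6 are named here. They summed to 220 CPM in reporter-negative cells, most of it Kit, and 178 CPM in reporter-positive cells. The 8 endothelial markers summed to 1927 CPM in reporter-negative cells and 4179 CPM in reporter-positive cells.

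Cilium genes were more often higher than lower in reporter-negative cells. The 12 past the rule of size on the higher side held 6 of 12 transition zone genes and 2 of 2 basal body genes. They also held 2 of 9 genes of the BBSome and its assembly, 1 of 3 IFT-A genes and 1 of 11 IFT-B genes. On the lower side were 3 genes of the BBSome and its assembly, 2 of the transition zone and 1 of IFT-B. Of the 48 genes, 47 had at least 20 counts over both libraries and were measured, and Kif17, a kinesin-2 motor of ciliated neurons, had 0 counts in both libraries. That rule asks for 10 CPM and 50 counts on the higher side and for an exact interval of the ratio that lies wholly beyond 2-fold. By this rule 12 of the 47 were higher in reporter-negative cells (25.5%), against 12.6% of all 12544 measured genes. Another 6 were lower there (12.8%), against 12.3% of all measured genes, so the count of lower genes was near the background. Only 42 of the 48 reached the level minimum, and among the 10381 genes that did, 15.2% were higher and 14.9% lower in reporter-negative cells. In the band of 10 to 100 CPM in mean level, 10 of 35 cilium genes were higher and 3 lower, against 15.3% and 15.0% of all measured genes of that band. Bbs1, Ift80, Kif7, Kif17 and Tctn1 were among those below the minimum. The log2 ratio of negative over positive was above 0 for 32 of 47 cilium genes (68.1%), and for 49.6% of all measured genes. Its median was 0.56 over the cilium genes and −0.01 over all measured genes, and it was 0.53 over the 39 cilium genes that had counts above 3 in each library. The interquartile range of the log2 ratio matched an SD of 0.91 over those 39 genes, of any level, and of 1.08 over the 6710 genes of that band that passed the same filter.

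**Figure D1:**
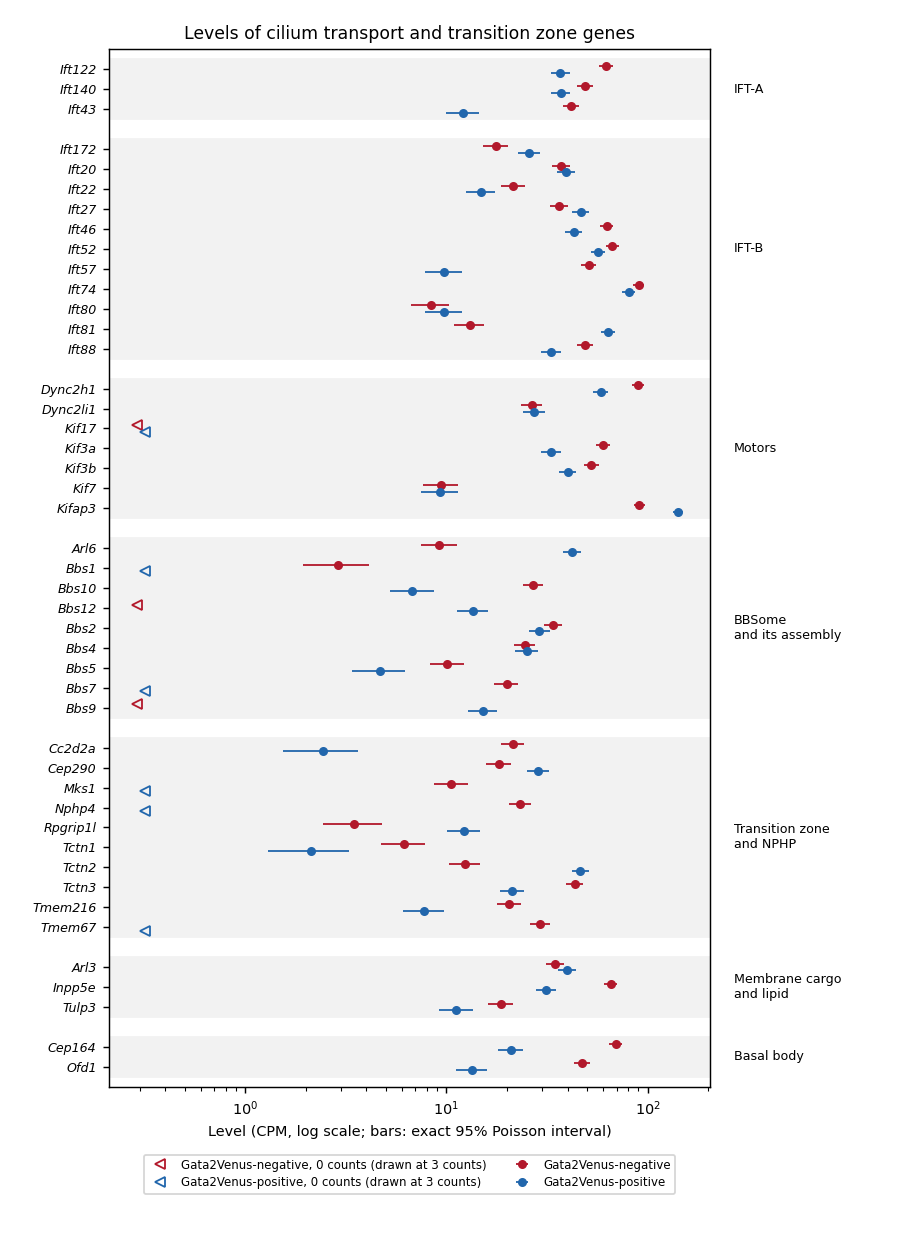
Level of 45 of the 48 cilium genes in CPM (log axis) in the Gata2Venus-negative (red) and Gata2Venus-positive (blue) library, by role, with exact 95% Poisson intervals as bars and open triangles for genes at 0 counts, drawn at the level of 3 counts. Of 14 IFT genes 3 pass the rule of size, and the transition zone genes Mks1, Nphp4 and Tmem67 are at 0 in reporter-positive cells.

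Promoters were examined because the genes of this organelle are known to share binding sites of RFX transcription factors, the X-box, taken here as the palindrome GTTGCCATGGCAAC. Windows from 250 bases before to 50 bases after the RefSeq start site (GRCm38.p6) were found for 41 of the 48 genes, with Dync2li1, Ift80, Ift81, Ift122 and Tmem67 among those without one. The core GTTGCC on either strand, which forms both arms of the palindrome, was in the window of 18 of 41 cilium genes (43.9%), against 14.8% of 9475 measured genes with a window. Kif17, which was not measured, is counted among the 41, the 18 and the genes not past the rule. A stretch with at most 3 mismatches to the palindrome was in 11 of 41 (26.8%) against 4.11%, and one with at most 2 mismatches was in 5 of 41 (12.2%) against 1.48%. These patterns were settled on after several had been looked at. The core was present in 5 of 10 genes higher in reporter-negative cells, 1 of 5 lower there, and 12 of 26 not past the rule. The stretches below are the best matches that lie before the start site in genes past the rule, shown because genes higher and genes lower in reporter-negative cells both hold one. Capitals mark the 14 bases aligned to the palindrome, and up to 30 bases are given on each side without passing the RefSeq start site. They are Bbs7 (chr3:36613467-36613540, minus strand), Mks1 (chr11:87853161-87853214, plus strand) and Ift57 (chr16:49699177-49699250, plus strand), higher in reporter-negative cells, and Bbs12 (chr3:37312409-37312482, plus strand) and Tctn2 (chr5:124598657-124598730, plus strand), lower there.
Bbs7: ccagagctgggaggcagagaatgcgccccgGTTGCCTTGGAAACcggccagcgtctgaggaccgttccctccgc
Mks1: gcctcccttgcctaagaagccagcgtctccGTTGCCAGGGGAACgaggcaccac
Ift57: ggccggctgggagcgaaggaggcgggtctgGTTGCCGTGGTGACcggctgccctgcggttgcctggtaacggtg
Bbs12: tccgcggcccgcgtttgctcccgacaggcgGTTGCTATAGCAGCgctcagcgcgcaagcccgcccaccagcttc
Tctn2: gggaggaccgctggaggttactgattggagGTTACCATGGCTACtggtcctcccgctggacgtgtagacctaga
Bbs7, Mks1 and Tctn2 have 2 mismatches to the palindrome, and Ift57 and Bbs12 have 3. For Bbs7 and Ift57 the printed stretch passes the gene start in GENCODE, another annotation, though the capitals do not. A match is a description of letters, not evidence of a bound site.

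Of 5 measured RFX genes 1 was higher and 0 lower in reporter-negative cells by the rule. Of all measured genes, 12.6% were higher and 12.3% lower. Rfx3, which is known to drive ciliary genes in mouse, was at 42.7 CPM in reporter-negative cells and 38.3 CPM in reporter-positive cells (log2 ratio 0.16, interval −0.04 to 0.36). Rfx1 had 177 and 195 counts, Rfx5, known for MHC class II genes, 121 and 205, and Rfx7 127 and 203 in reporter-negative and reporter-positive cells, and none of these passed the rule. Rfx4 passed it, with 111 counts in reporter-negative cells and 1 in reporter-positive cells (log2 ratio 6.66, interval 4.15 to 11.97). Rfx2, Rfx6 and Foxj1, the master gene of motile cilia, had 0 counts in both libraries.

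The 14 genes that carry an Ift symbol had counts in both libraries, and 11 of them were not past the rule. Of IFT-A, the part of the train needed for the return journey and for membrane cargo, the 3 subunits under Ift symbols had higher values in reporter-negative cells. Ift43 (chromosome 12, 86082541 to 86162459, in mm10 as below) passed the rule with 434 counts in reporter-negative cells and 114 in reporter-positive cells, 3.46-fold higher (log2 ratio 1.79, interval 1.49 to 2.10). Ift122 had 648 counts in reporter-negative cells and 348 in reporter-positive cells, and Ift140 had 508 and 350, with log2 ratios of 0.76 and 0.40 that did not pass. These 3 genes summed to 153 CPM in reporter-negative cells and 85.9 CPM in reporter-positive cells. With the subunits Wdr19, Wdr35 and Ttc21b, which have other symbols, the 6 genes summed to 203 CPM in reporter-negative cells and 159 CPM in reporter-positive cells, 1.28-fold. Of these 6, 1 was higher, 1 lower and 4 not past the rule, against 12.6% higher and 12.3% lower of all measured genes.

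The genes under Ift symbols of IFT-B, the larger part of the train, which binds kinesin-2 and tubulin, summed to nearly the same level, 453 CPM in reporter-negative cells and 422 CPM in reporter-positive cells. Of these 11 genes 1 was higher, 1 was lower and 9 were not past the rule. With 7 more IFT-B genes under other symbols, 17 were measured, of which 2 were higher, 3 lower and 12 not past. Both sets stand against 12.6% higher and 12.3% lower of all measured genes. The sums with these 7 genes were 533 CPM in reporter-negative cells and 528 CPM in reporter-positive cells. Ift57 (chromosome 16, 49699233 to 49765126), a peripheral subunit, had 531 counts in reporter-negative cells and 92 in reporter-positive cells, 5.24-fold higher (log2 ratio 2.39, interval 2.07 to 2.73). Ift81 (chromosome 5, 122550204 to 122614518) went the other way, with 136 counts in reporter-negative cells and 600 in reporter-positive cells, 4.86-fold lower (log2 ratio −2.28, interval −2.56 to −2.01). Its partner in the tubulin-binding pair, Ift74, had 940 counts in reporter-negative cells and 761 in reporter-positive cells (log2 ratio 0.17, interval 0.03 to 0.31), so the pair was not matched in ratio. The small GTPase gene Ift27 had 376 and 440 counts in reporter-negative and reporter-positive cells (log2 ratio −0.37), while Hspb11, which encodes its partner IFT25 and was picked after its values were seen, was 3.84-fold higher in reporter-negative cells with 304 and 72 counts (log2 ratio 1.94, interval 1.56 to 2.33). The remaining core genes under Ift symbols lay between a log2 ratio of 0.23 for Ift52 (694 and 536 counts in reporter-negative and reporter-positive cells) and 0.56 for Ift88 (508 and 313 counts), the gene whose mouse mutants lack cilia, with Ift22 (223 and 140) and Ift46 (650 and 405) between them. The other peripheral genes under Ift symbols, Ift20 (387 and 371 counts), Ift80 (87 and 92) and Ift172 (183 and 244), had log2 ratios from −0.55 to −0.08.

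The motor genes did not pass the rule in either direction. The kinesin-2 genes Kif3a and Kif3b, which form the heterodimer needed to build cilia, had 626 and 547 counts in reporter-negative cells against 313 and 378 in reporter-positive cells (log2 ratios 0.86 and 0.39). Kifap3, their common accessory subunit, had 947 counts in reporter-negative cells and 1335 in reporter-positive cells (log2 ratio −0.63, interval −0.76 to −0.51), so the subunits of this motor leaned in opposite directions. Kinesin-2 and Kifap3 also serve transport outside the cilium. The dynein-2 heavy chain gene Dync2h1 had 933 counts in reporter-negative cells and 553 in reporter-positive cells (log2 ratio 0.62), and its light intermediate chain gene Dync2li1 had 276 and 258 (log2 ratio −0.04). Kif7, a kinesin of the ciliary tip that regulates GLI factors, was low in both, with 98 counts in reporter-negative cells and 88 in reporter-positive cells (log2 ratio 0.02). Motor genes together summed to 329 CPM in reporter-negative cells and 309 CPM in reporter-positive cells.

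**Figure D2:**
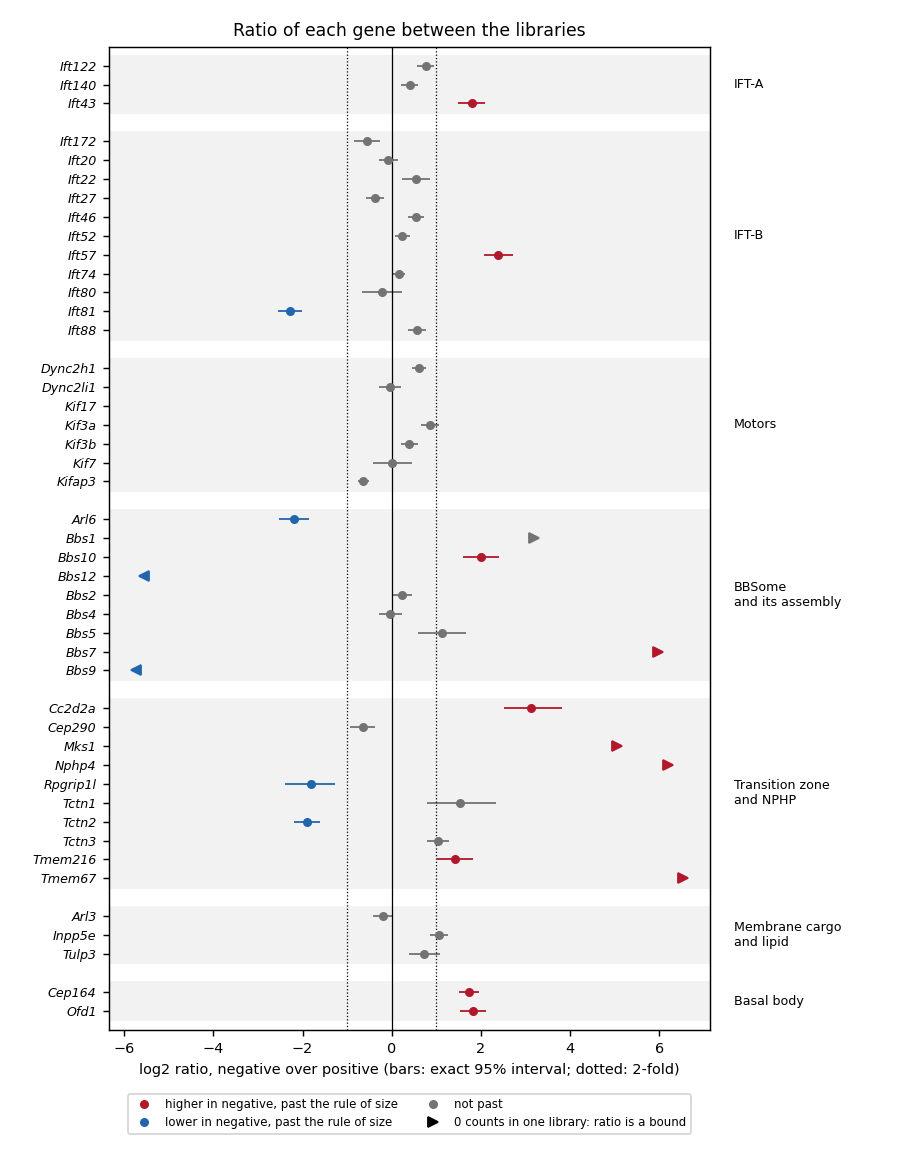
Log2 ratio of negative over positive for 44 of the 48 cilium genes by role (Kif17, at 0 in both libraries, has none), with exact 95% intervals as bars, triangles for genes at 0 counts in 1 library (a bound at 3 counts) and dotted lines at 2-fold. Of the 10 transition zone and NPHP genes drawn, 5 are past the rule on the higher side and 2 on the lower side, and 0 of the 6 measured motor genes pass.

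Genes of the BBSome and of its assembly split between the libraries. Of 9 genes (Arl6 and those under Bbs symbols), 2 were higher, 3 were lower and 4 were not past the rule. Of all measured genes, 12.6% were higher and 12.3% lower. The 9 genes summed to 127 CPM in reporter-negative cells and 136 CPM in reporter-positive cells. With Ttc8, Bbip1 and Mkks, which belong to the same particle and its assembly, 2 of 12 were higher and 4 lower, at 185 CPM in reporter-negative cells and 235 CPM in reporter-positive cells. Bbs7 (chromosome 3, 36573142 to 36613477), a core subunit, had 207 counts in reporter-negative cells and 0 in reporter-positive cells, at least 62.7-fold higher. Here and below, "at least" is the fold with 3 counts put in for 0, and the exact interval reaches smaller folds. For Bbs7 the log2 ratio was 5.97 with 3 counts put in, and the exact interval began at 5.66. Bbs9 (chromosome 9, 22475715 to 22888280), another core subunit, had 0 counts in reporter-negative cells and 144 in reporter-positive cells, at least 52.8-fold lower. Both proteins belong to the same particle, and each library was at 0 for a subunit that the other had. Bbs2 and Bbs4, likewise subunits, were even, with 353 and 255 counts in reporter-negative cells and 274 and 237 in reporter-positive cells (log2 ratios 0.23 and −0.03). Bbs5, which binds lipids, had 105 counts in reporter-negative cells and 44 in reporter-positive cells (log2 ratio 1.12, interval 0.60 to 1.66), and Bbs1, the subunit that meets the small GTPase ARL6, had 30 and 0, below the level minimum. Arl6 itself (chromosome 16, 59612949 to 59639391), which recruits the BBSome to membranes, had 96 counts in reporter-negative cells and 398 in reporter-positive cells, 4.56-fold lower (log2 ratio −2.19, interval −2.53 to −1.87). The chaperonin-like genes that help to fold BBSome subunits also divided. Bbs10 (chromosome 10, 111298679 to 111301727) had 281 counts in reporter-negative cells and 64 in reporter-positive cells, 3.99-fold higher (log2 ratio 2.0, interval 1.60 to 2.41). Bbs12 (chromosome 3, 37312554 to 37321453) had 0 and 128, at least 47.0-fold lower. Bbs7 and Bbs12 lie near each other on chromosome 3 and differed in opposite directions.

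Transition zone genes were the group with the most genes past the rule. Of 12, 6 were higher in reporter-negative cells, 2 were lower and 4 were not past. Of all measured genes, 12.6% were higher and 12.3% lower. Among the 6, Mks1, Nphp4 and Tmem67 were at 0 counts in reporter-positive cells. The 12 genes summed to 277 CPM in reporter-negative cells and 154 CPM in reporter-positive cells. Their median log2 ratio was 1.48, or 1.17 over the 8 genes that had counts above 3 in each library, against −0.01 over all measured genes. Of these 6, 4 belong to the MKS complex, the membrane-bound part of the gate. Tmem67 (chromosome 4, 12039355 to 12090020), a receptor-like membrane protein, had 303 counts in reporter-negative cells and 0 in reporter-positive cells, at least 91.7-fold higher. Mks1 (chromosome 11, 87853215 to 87863803), a B9-domain protein, had 110 and 0, at least 33.3-fold higher. Cc2d2a (chromosome 5, 43662346 to 43740972), a scaffold of the gate, had 222 counts in reporter-negative cells and 23 in reporter-positive cells, 8.77-fold higher (log2 ratio 3.13, interval 2.51 to 3.82). Tmem216 (chromosome 19, 10533865 to 10556238), a small membrane protein, had 214 and 73, 2.66-fold higher (log2 ratio 1.41, interval 1.02 to 1.82), whose interval came nearest to the 2-fold boundary among the cilium genes past it. The 3 tectonic genes, whose products sit at the same gate, did not move together. Tctn2 (chromosome 5, 124598749 to 124627738) had 129 counts in reporter-negative cells and 438 in reporter-positive cells, 3.74-fold lower (log2 ratio −1.90, interval −2.20 to −1.62). Tctn3 had 451 and 201 (log2 ratio 1.03, interval 0.78 to 1.27) and Tctn1 64 and 20 (log2 ratio 1.54, interval 0.80 to 2.34), and neither passed the rule.

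The NPHP module, which joins the gate to the axoneme, was also divided. Nphp4 (chromosome 4, 152476706 to 152563183), a scaffold of this module, had 242 counts in reporter-negative cells and 0 in reporter-positive cells, at least 73.3-fold higher. Rpgrip1l (chromosome 8, 91217030 to 91313262), a binding partner of NPHP4, went the other way with 36 counts in reporter-negative cells and 115 in reporter-positive cells, 3.52-fold lower (log2 ratio −1.81, interval −2.40 to −1.26). Cep290, a long linker between microtubules and membrane, had 189 and 270 (log2 ratio −0.65, interval −0.93 to −0.38).

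Both basal body genes chosen by symbol were higher in reporter-negative cells, while the wider list of centriole and distal appendage genes, given below, went both ways. Cep164 (chromosome 9, 45766946 to 45828691), a protein of the distal appendages that dock the centriole to the membrane, had 724 counts in reporter-negative cells and 198 in reporter-positive cells, 3.32-fold higher (log2 ratio 1.73, interval 1.5 to 1.97). Ofd1 (chromosome X, 166390033 to 166440704), which sits at the distal end of centrioles and in satellites, had 490 and 126, 3.53-fold higher (log2 ratio 1.82, interval 1.54 to 2.11). Of 4 genes for ciliary membrane cargo and lipids 3 had log2 ratios above 0, and none passed. Inpp5e, the phosphatase that shapes ciliary phosphoinositides, had 682 counts in reporter-negative cells and 296 in reporter-positive cells (log2 ratio 1.07, interval 0.87 to 1.27). Tulp3, an adaptor that brings receptors to the cilium with IFT-A, had 194 and 106 (log2 ratio 0.73), and Arl3, the GTPase that releases lipid-anchored cargo, had 362 and 377 (log2 ratio −0.20).

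Of the 18 genes past the rule, 6 were seen in 1 library alone. At least 50 counts in reporter-negative cells and 0 in reporter-positive cells were found for 5 of 48 genes (10.4%), Bbs7, Mks1, Nphp4 and Tmem67 among them, against 4.0% of all measured genes. The opposite pattern was found for Bbs9 and Bbs12, 2 of 48 (4.17%), against 4.41%, with Kif17, which was not measured, among the 48. Such absences were more frequent at low level: among genes with a mean under 10 CPM they were found in 5 of 11 cilium genes (45.5%) and in 28.3% of all measured genes, and among genes with a mean of 10 to 100 CPM in 2 of 35 (5.71%) and in 2.67%. For a gene at 0 the limit, set at 3 counts, is 0.288 CPM in reporter-negative cells and 0.317 CPM in reporter-positive cells. Without genes at 3 or fewer counts in a library, a filter chosen after seeing the data, 8 of 39 cilium genes were higher (20.5%, against 11.3% of the 10581 measured genes left) and 4 lower (10.3%, against 10.7%) in reporter-negative cells. With a coefficient of variation of 0.4 between libraries assumed, 5 of 47 measured cilium genes were higher, against 5.11% of all measured genes. They were Bbs7, Cc2d2a, Mks1, Nphp4 and Tmem67. Lower were 2 of 47, Bbs9 and Bbs12, against 5.44%. With the interval required to lie beyond 4-fold, Ift57 joined the higher ones, 6 of 47, against 5.93% of all measured genes. Ift81 joined the lower ones, 3 of 47, against 5.99%.

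**Figure D3:**
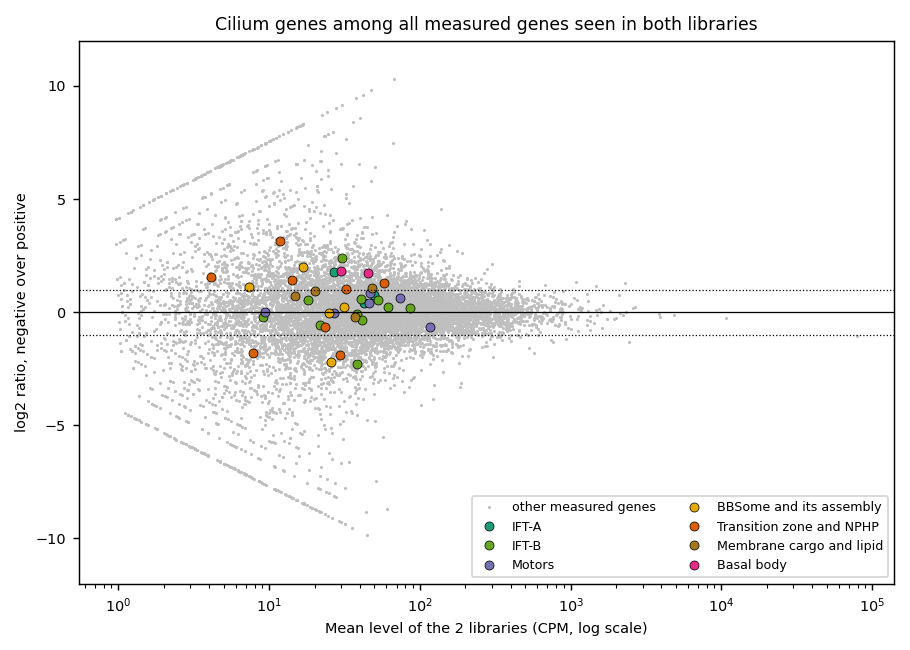
Log2 ratio of negative over positive against mean level in CPM (log axis) for measured genes with counts in both libraries (grey) and for the cilium genes among them (coloured by role). Over the 39 cilium genes that had counts above 3 in each library the interquartile range matches an SD of 0.91, against 1.08 for the 6710 genes of 10 to 100 CPM with the same filter, and the median is 0.53 against −0.01.

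Per length, transport genes held the first 4 places by the mean of both libraries. Exon lengths were taken from GENCODE, and a level per kilobase is the CPM divided by that length. Ift74 led, at 34.0 CPM per kb in reporter-negative cells and 30.3 in reporter-positive cells, followed by Kifap3 (22.7 and 35.2), Ift20 (24.4 and 25.7) and Ift52 (23.8 and 20.2). Among the lowest detected genes on the mean of both were Bbs1 (0.375 and 0 CPM per kb in reporter-negative and reporter-positive cells), Tctn1 (0.741 and 0.255) and Rpgrip1l (0.235 and 0.828). Annotated exons overlapped those of other genes by 20.3% in Inpp5e (with Pmpca) and 19.0% in Tctn1 (with Hvcn1), each on the opposite strand, and by 7.58% or less in the other 9 cilium genes with any overlap. Whether counting used strand is not stated in those sources, so reads of these stretches cannot be told apart.

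Other genes of the same structures were taken from lists drawn up beside the rule. The counts past the rule of size below stand against 12.6% higher and 12.3% lower of all measured genes. In the list of IFT and BBSome genes under other symbols, 18 were measured. Of these, 2 were higher and 4 lower in reporter-negative cells, with a median log2 ratio of 0.005. That list also held dynein-2 chains, regulators and Wdpcp, which are not subunits of these complexes. Ttc21b, which encodes the IFT-A subunit IFT139, had 0 counts in reporter-negative cells and 242 in reporter-positive cells, at least 88.8-fold lower. Ttc30a1, an IFT-B subunit with near-identical copies, had 0 and 122, and Ttc8, the BBSome subunit BBS8, had 63 and 432, 7.55-fold lower (log2 ratio −2.92, interval −3.32 to −2.53). Wdpcp, a planar polarity gene needed for cilia in mouse, had 192 counts in reporter-negative cells and 0 in reporter-positive cells, at least 58.1-fold higher. Of 21 other transition zone and inversin genes, 7 were higher and 1 lower, with a median of 0.60. Anks6 and its kinase partner Nek8, both of the inversin compartment, had 153 and 142 counts in reporter-negative cells and 0 in reporter-positive cells. Tmem231 was 4.05-fold higher (579 and 130 counts, log2 ratio 2.02, interval 1.74 to 2.30), and Invs, the gene that gives the compartment its name, was 9.16-fold lower (25 and 208 counts, log2 ratio −3.20, interval −3.86 to −2.59). Lists were chosen with earlier results of these data known, and a difference between the lists was not tested.

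Centriole genes, which serve cell division as well as cilia, went both ways, with 9 higher and 5 lower in reporter-negative cells of 31 measured and a median of 0.32. Ttbk2, the kinase that starts cilium assembly at the distal appendages, was 8.94-fold higher (315 counts in reporter-negative cells and 32 in reporter-positive cells, log2 ratio 3.16, interval 2.63 to 3.73). Cep131, a satellite protein, was 7.23-fold higher (1043 and 131 counts). Poc1a and Cep19 were 4.88-fold and 4.01-fold lower (170 and 753, and 162 and 590 counts). Of 10 measured genes that take cilia down or cap centrioles, 2 were higher and 0 lower, with a median of 0.57. These were Nedd9, an activator of Aurora A (124 and 25 counts, 4.51-fold), and Ccp110, a cap of the mother centriole (723 and 257 counts, 2.56-fold). Markers of cycling cells did not pass: 0 of 6 were past the rule, with summed levels of 2656 CPM in reporter-negative cells and 2589 CPM in reporter-positive cells and a median of −0.24.

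Of 18 measured genes of the Hedgehog pathway 6 were higher and 0 lower in reporter-negative cells, with a median log2 ratio of 0.93. Among them were the transducers at the ciliary base Evc (127 counts in reporter-negative cells and 13 in reporter-positive cells, 8.87-fold, log2 ratio 3.15, interval 2.32 to 4.10) and Evc2 (399 and 131 counts, 2.77-fold). Beside Hhip, Ptch1 and Gli2, the pathway target gene Gli1 was 4.60-fold higher (162 and 32 counts, log2 ratio 2.20, interval 1.65 to 2.80), and it, Evc2, Smo and Gpr161 were picked after their values were seen. Smo, the receptor that enters the cilium on signalling, had 983 counts in reporter-negative cells and 536 in reporter-positive cells and did not pass (log2 ratio 0.74). Gpr161, a ciliary receptor that restrains the pathway and that TULP3 carries, had 0 counts in both libraries.

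Markers of some other cells also differed between the libraries, in both directions. Of 11 mesenchyme and smooth muscle markers 7 were higher and 0 lower in reporter-negative cells, with none of them at 0 in either and summed levels of 7756 CPM in reporter-negative cells and 4792 CPM in reporter-positive cells. Of 5 epithelial markers 2 were higher, with summed levels of 421 and 290.2 CPM in reporter-negative and reporter-positive cells. Endothelial markers were lower in 5 of 8, macrophage markers in 5 of 6 (summed levels of 105 CPM in reporter-negative cells and 608 CPM in reporter-positive cells, with Timd4 at 0 in reporter-negative cells) and megakaryocyte markers in 5 of 6 (62.1 and 330.1 CPM, with Gp1bb and Gp5 at 0 in reporter-negative cells). Of 5 measured erythroid markers 1 was lower and 0 higher (summed levels of 325 and 221 CPM), with Gata1 and Klf1 at 0 in reporter-negative cells. Their part in the differences of cilium genes was not tested.

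**Figure D4:**
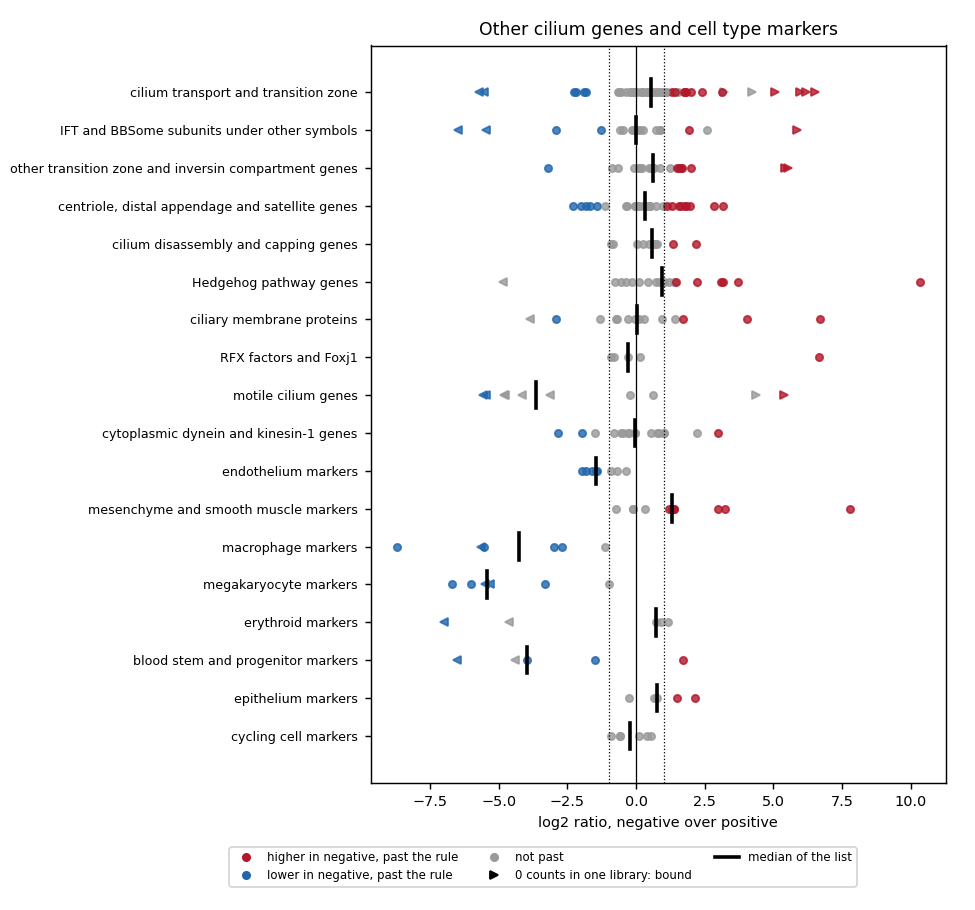
Log2 ratio of negative over positive for each measured gene (points; triangles are bounds for genes at 0 counts in 1 library) of the cilium genes, other cilium lists and cell type markers, with the median of each list as a black bar. The median is 0.56 for the cilium genes and 0.005 for the list of IFT, BBSome and related genes under other symbols. It is 1.31 for mesenchyme and smooth muscle markers and −1.46 for endothelial markers.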

How the data were processed

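The authors deposited raw whole-number counts for each gene symbol, with 1 table a library. TopHat, Cufflinks and HTSeq and the mm10 build are named per the submitters' processing notes, while the sources used here do not give versions, annotation or strand use. RNA was prepared with the mirVana kit and the SMARTER protocol, per the labels' protocols. That protocol amplifies cDNA and no molecular identifiers are named, so intervals can be too narrow. The 5 rows that name no gene were left out: of all counts in reporter-negative and reporter-positive cells, non-unique alignments held 45.5% and 48.2%, reads in no feature 5.93% and 7.996%, ambiguous ones 0.474% and 0.412%, and the others 0.

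Counts were scaled by TMM (edgeR 4.0.16 in R 4.3.3; factors 1.03 for reporter-negative and 0.974 for reporter-positive cells). Ratios have exact Clopper-Pearson and levels exact Poisson 95% intervals (scipy 1.17.1). No test across conditions was possible with 1 library each, so the rule of size took its place. A gene at 0 counts in 1 library was set to 3 counts there for its fold, given as "at least", and for list medians. This bound is not the limit of the exact interval, which lies nearer to equal expression. Coordinates and exon lengths come from GENCODE vM21 of mm10, which matched 48 of 48 genes. The steps were run on simulated counts that held counting error only. That check cannot speak to spread between libraries or to genes lost in amplification. Every cilium gene enters the counts, sums and medians, and a few genes are not reported by name here. Of each other list at most 4 genes that passed were named, those with an interval farthest from a ratio of 1, and the RFX list in full. A gene outside this is marked as picked after its values were seen. The cilium genes, the lists and the promoter motifs were chosen with earlier results of these data known. Sums that join subunits under other symbols were added after the values were seen. Alternatives are DESeq2 1.42.0 size factors and other scalings, level minimums, fold boundaries, an assumed spread and a thinned library.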

Additional observations from a re-analysis of the deposited data

How the results depend on the processing

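The 12 cilium genes higher and 6 lower in reporter-negative cells were the same genes under scaling by total counts, by DESeq2 size factors and without the 100 most abundant genes, and with the deeper library thinned, where 12.6% to 13.9% of all measured genes were higher and 11.3% to 13.6% lower. Scaling to total counts shifted all measured genes by 0.078 in median log2 ratio and turned the sign of Bbs4 and Dync2li1, neither past the rule. With libraries assumed to vary by a coefficient of 0.4, 5 cilium genes were higher and 2 lower, of 641 and 683 genes in all. With the interval beyond 4-fold, there were 6 and 3, of 744 and 751, and beyond 1.5-fold 17 and 6, of 2440 (19.5%) and 2384 (19.0%). The median of the cilium genes ranged from 0.53 to 0.64. Without the 100 most abundant genes, the median of the list of IFT, BBSome and related genes under other symbols was −0.0048. It was −0.0010 with the thinned library. The median of cytoplasmic dynein and kinesin-1 genes was 0.021 under scaling by total counts. That of motile cilium genes was 0.19 over the 2 with more than 3 counts in both libraries. The cause was not tested beyond these scalings and filters. No paired analysis was possible because each group has 1 library, and for that reason no library could be left out. The rule of size leaves out genes under 10 CPM in both libraries, and replicate spread is unknown.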

Other observations

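Genes of motile cilia, the beating type made by specialised epithelia, were mostly at 0 counts in both libraries. Of 27 such genes in the tables, 22 had 0 counts in reporter-negative cells and 19 in reporter-positive cells, and 10 were measured. Hydin, of the central pair of the axoneme, had 139 counts in reporter-negative cells and 0 in reporter-positive cells, while the axonemal dynein gene Dnah1 and the tektin gene Tekt1 had 0 counts in reporter-negative cells against 130 and 121 in reporter-positive cells. The median log2 ratio of −3.65 rests on genes seen in 1 library alone. Cytoplasmic dynein and kinesin-1 genes, which carry cargo in the cell body, had 1 gene higher and 2 lower of 17 measured, with a median of −0.06. Kif5c, a kinesin-1 heavy chain best known from neurons, was 7.83-fold higher in reporter-negative cells (362 counts in reporter-negative cells and 42 in reporter-positive cells), and the dynein light chain genes Dynll2 (34 and 223 counts) and Dynlt3 (132 and 466 counts) were 7.22-fold and 3.89-fold lower.

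Among 14 measured genes of ciliary membrane proteins and their delivery, 3 were higher and 1 lower in reporter-negative cells, with a median log2 ratio of 0.03. Adcy3, the adenylyl cyclase that marks many primary cilia, had 453 counts in reporter-negative cells and 4 in reporter-positive cells (log2 ratio 6.68, interval 5.32 to 8.57). Tbc1d32, needed for normal cilia and Hedgehog signalling in mouse, had 127 and 7 counts (16.5-fold higher), and Rab23, a GTPase that restrains Hedgehog signalling, had 552 and 153 (3.28-fold higher). Pkd2, the ciliary cation channel polycystin, went the other way with 17 counts in reporter-negative cells and 117 in reporter-positive cells (7.58-fold lower). The receptors Sstr3, Htr6 and Mchr1, known from cilia of neurons and picked after their values were seen, had 0 counts in both libraries.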
